A study of Mus musculus with 18 samples.

Results

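The genes described here are regulators of endoderm and mesendoderm, lineages that lie off the route from fibroblast to pluripotent cell: Gata4, Gata6, Sox17, Sox7, Foxa2, T, Eomes, Mixl1, Cdx2 and Dab2. Probe sets annotated to these symbols were taken from mouse whole-transcript arrays, and 9 of the 10 genes were found among 22180 measured genes, each with 1 probe set. T (also written Tbxt) was not analysed here, because the probe annotation used pairs no probe set with it.

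The arrays came from cells of the strain Black6-129X1/SvJ. Reprogrammable mouse embryonic fibroblasts (MEFs) carry OKSM (Oct4, Klf4, Sox2 and Myc) under control of doxycycline (dox). Bulk cultures expressed OKSM together with AGi, in which ascorbic acid and an inhibitor of the kinase GSK3 are added at once, or OKSM alone. Cells of both arms were taken on days 2, 4, 6, 8, 10 and 12, and 1 array was run for each day. The other 6 arrays were single samples: Thy1-positive cells, labelled refractory, that were sorted on day 3 of OKSM, an iPSC line from fibroblasts (Fibroblast-iPSC, 4 days of AGi), an iPSC line from granulocyte-macrophage progenitors (GMP-iPSC, 2 days of AGi), wild-type embryonic stem cells (ESCs), granulocyte-macrophage progenitors (GMPs) and the reprogrammable MEFs without dox. The GSK3 inhibitor was never given without ascorbic acid, so their effects cannot be told apart, and every comparison below is of the combination. No arm and day was repeated, so errors and p-values measure the spread between days. The few arrays limit the precision. In bulk samples, fewer cells of a type and less RNA per cell cannot be told apart.

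As background, GATA6 and GATA4 are zinc-finger transcription factors that drive the primitive endoderm of the blastocyst, where SOX17 and SOX7 also act and the endocytic adaptor DAB2 is needed for the epithelial order of the layer. FOXA2 opens chromatin in definitive endoderm, and T, EOMES and MIXL1 pattern the primitive streak, from which mesoderm and definitive endoderm arise. CDX2 specifies trophectoderm and later the hindgut. GSK3 marks beta-catenin for destruction, so its inhibitors raise Wnt signalling, which in the embryo induces T and other streak genes. GATA6 and DAB2 are also made outside the endoderm, DAB2 in fibroblasts and macrophages among others.

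The labelled cell types could be checked with marker lists. The mean log2 level of 15 fibroblast markers was 11.39 in MEFs, 9.61 in Fibroblast-iPSC, 8.76 in ESCs, 8.18 in GMP-iPSC and 7.51 in GMPs. That of 13 pluripotency markers lay between 10.54 and 10.82 in the iPSC lines and ESCs, and at 6.53 in MEFs, although the probe set of Dppa5a read 6.59 in Fibroblast-iPSC and 6.53 in MEFs and so did not separate them. All 18 hybridisation controls, foreign transcripts spiked into the labelled sample, were on average higher on the arrays with AGi, by 0.06 to 0.26 log2. Differences of the members up to that size are read against it below. The 23 background probe sets, which match no mouse sequence, read between 3.28 and 9.72. All values of Gata6, Eomes and the 6 other members, and the lower values of Dab2, lie in that range, where a level does not show whether the gene was expressed.

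The first comparison asked whether AGi raised or lowered these genes across the 6 days. AGi lowered Dab2 and Gata6, and neither raised nor lowered any of the other 7 past the threshold. The log2 difference was −1.15 for Dab2 and −0.90 for Gata6, and each was lower on 6 of 6 days. With limma and the day as a block, 0 of 9 members were called higher and 2 lower, at an adjusted p under 0.05 over all genes. Of all genes, 11.8% were called higher and 11.9% lower. The members' 2 of 9 lower calls are few enough that no difference from that background is read from them. At an unadjusted p under 0.05, Gata4 and Eomes were higher and Sox7 was lower as well. The median effect was −0.02 over the 9 members and −0.00 over all genes.

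Dab2 had log2 values of 10.67, 9.29, 8.91, 9.56, 9.40 and 9.98 on days 2 to 12 with AGi, against 10.95, 10.52, 10.49, 10.87, 10.94 and 10.97 with OKSM alone. The arms lay close together on day 2, and from day 4 on every value with AGi was below every value without it. The AGi effect was −1.15 ± 0.16 (log2, limma SE, n = 6 days, adjusted p = 0.00266). The single arrays read 10.85 in Thy1-positive cells, 9.73 in GMPs, 8.52 in Fibroblast-iPSC, 7.94 in GMP-iPSC, 8.47 in ESCs and 10.77 in MEFs. Cultures with OKSM alone therefore stayed within 0.28 of the MEF level, whereas cultures with AGi stood between MEFs and pluripotent cells from day 4 on. On days 8, 10 and 12 they averaged 9.65 ± 0.30 (SD, n = 3 days), against 8.31 ± 0.32 in the pluripotent arrays (SD, n = 3 lines).

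Windows of 250 bases before the annotated starts were searched for 4 measured members, Dab2, Eomes, Foxa2 and Cdx2, and for T (RefSeq, build GRCm38.p6). Those of Dab2 and Eomes are printed because these genes moved. No windows were available for Gata4, Sox17, Sox7 and Mixl1. Gata6 also moved, but members' windows on its chromosome were left out of the search, so the counts below do not cover it. The shares of all windows given below do include that chromosome. Both strands of the windows were searched for TCF/LEF letters (CTTTGAA or CTTTGAT or CTTTGTA or CTTTGTT), which beta-catenin's partners bind. GATA letters (AGATAA or AGATAG or TGATAA or TGATAG) were searched in the same way, and matches to either set are in capitals. The TCF/LEF letters CTTTGAT end as the GATA letters TGATAA and TGATAG begin, so a stretch can match both sets. Of 32851 such windows in the table, 14.8% hold a TCF/LEF match and 26.5% a GATA match. Of the 7 windows of the 4 measured genes, 0 hold a TCF/LEF match and 2 a GATA match, 1 of Dab2 and 1 of Foxa2. The 1 window of T holds 1 TCF/LEF match, at position −235, and 0 GATA matches. The 2 windows of Dab2 lie on the plus strand at chr15:6299539-6299788, where the GATA match starts at position −179 from the annotated start, and at chr15:6386498-6386747.
Dab2 upstream start: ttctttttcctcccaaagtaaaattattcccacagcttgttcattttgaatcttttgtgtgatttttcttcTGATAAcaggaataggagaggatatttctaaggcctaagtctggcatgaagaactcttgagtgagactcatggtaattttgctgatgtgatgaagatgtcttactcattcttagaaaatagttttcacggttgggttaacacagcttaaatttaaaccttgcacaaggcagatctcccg
Dab2 downstream start: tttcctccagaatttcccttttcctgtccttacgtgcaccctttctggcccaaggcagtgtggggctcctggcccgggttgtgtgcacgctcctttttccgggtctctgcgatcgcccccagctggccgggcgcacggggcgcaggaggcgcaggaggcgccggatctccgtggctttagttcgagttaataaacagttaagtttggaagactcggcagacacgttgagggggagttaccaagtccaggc

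Gata6 had log2 values of 8.00, 6.95, 6.71, 7.12, 6.61 and 7.56 on days 2 to 12 with AGi, against 8.20, 7.83, 7.57, 8.18, 8.22 and 8.38 with OKSM alone. Every value with AGi was below the OKSM value of its day, and apart from day 2 every value with AGi was below every OKSM value. The AGi effect was −0.90 ± 0.15 (n = 6 days, limma adjusted p = 0.00532). Gata6 read 8.46 in Thy1-positive cells, 6.76 in Fibroblast-iPSC, 6.59 in GMP-iPSC, 6.82 in ESCs, 6.21 in GMPs and 9.0 in MEFs. It was thus highest in MEFs among the 18 arrays and lower than there on every day of either arm, with log2 differences of −2.39 to −1.0 with AGi and −1.43 to −0.63 with OKSM alone. On days 6 and 10 the values with AGi lay within those of the pluripotent arrays, and on the other days above them.

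**Figure D1:**
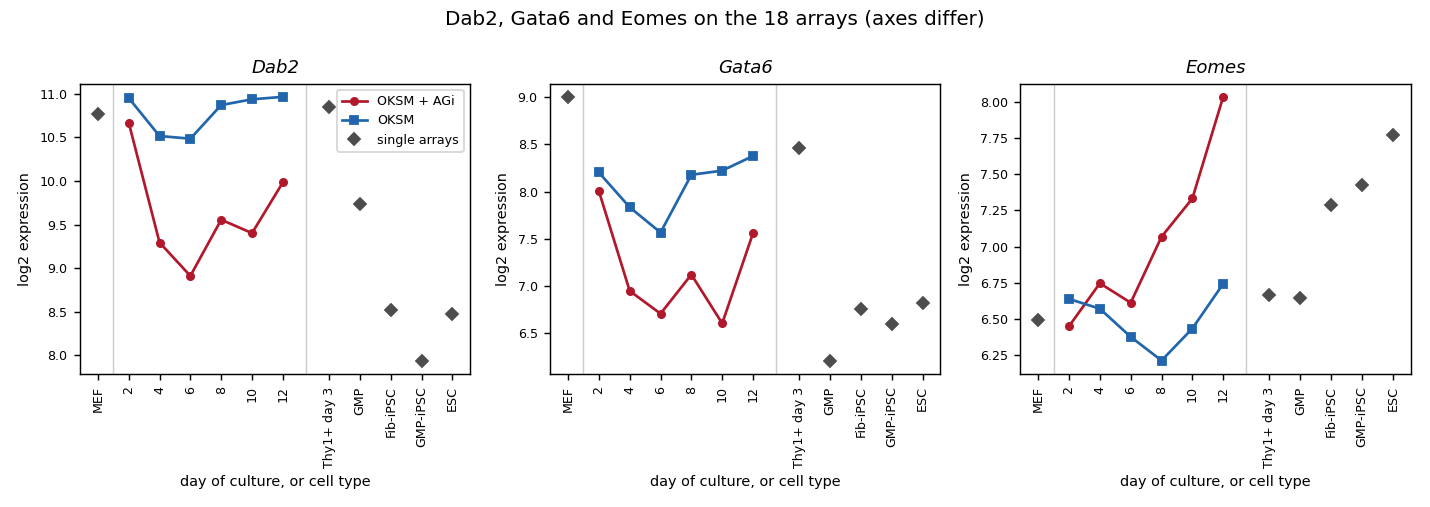
Log2 expression of Dab2, Gata6 and Eomes (y axes, which differ between panels) in MEFs, on days 2 to 12 with AGi (circles) and with OKSM alone (squares), and in the other single arrays (diamonds); each point is 1 array. Dab2 with AGi reads 8.91 on day 6 against 10.49 without, Gata6 6.61 on day 10 against 8.22, and Eomes 8.04 on day 12 against 6.74.

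Both calls held in each fit that left out 1 day, without the day block and when tested against the largest control difference instead of 0 (adjusted p = 0.0148 for Dab2 and 0.0393 for Gata6, limma). On days 2, 4 and 6 alone they did not pass (adjusted p = 0.0583 and 0.0588), and both were lower on each of these days. On days 8, 10 and 12 alone both passed, at −1.28 for Dab2 and −1.16 for Gata6. Markers of other cells moved in the same way: 13 of 15 fibroblast markers were lower with AGi and 0 higher, and 6 of 13 macrophage markers were lower and 1 higher. Of 12 endothelial markers, 4 were lower and 0 higher. Among all genes 11.9% were lower and 11.8% higher. The mean level of the fibroblast markers lay between 9.23 and 10.31 with AGi and between 10.18 and 11.01 with OKSM alone. That of the macrophage markers lay between 6.45 and 7.73 with AGi and between 6.52 and 8.11 with OKSM alone. The part of any of these marker lists in the Dab2 and Gata6 results was not tested.

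Over the 18 arrays, Dab2 spanned 3.03 log2 and Gata6 2.79, and 16.9% of all genes spanned at least 2. The genes whose values followed Dab2 most closely were Hdac7 (Pearson r = 0.97), Ifnar1 (0.97) and Ldlrad4 (0.96), and for Gata6 they were Pofut2 (0.97), Dip2a (0.95) and Adgra2 (0.94). These correlations describe 18 arrays that share their arms and days.

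**Figure D2:**
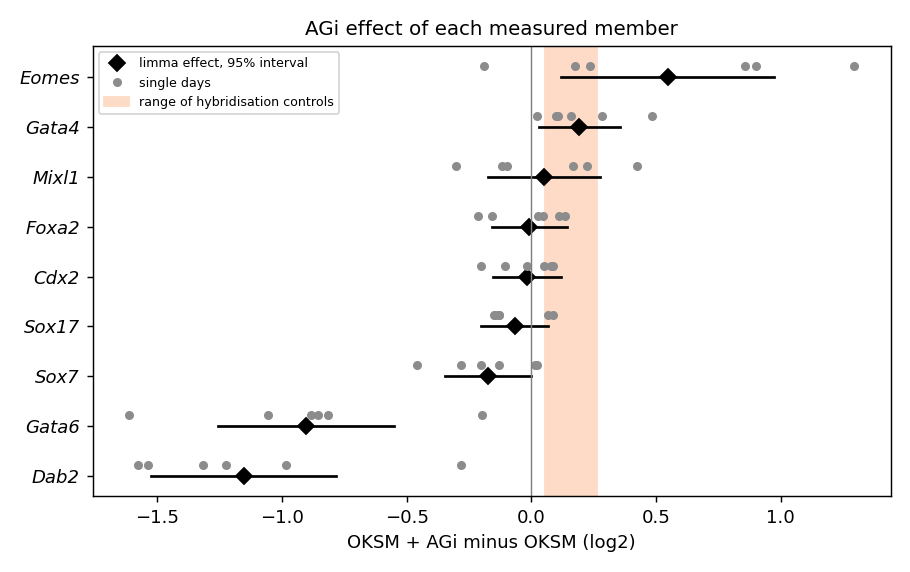
AGi effect on each measured member (x axis, log2 difference of OKSM with AGi minus OKSM alone): diamonds and lines are the limma estimate and its 95% interval, grey points the 6 single days, and the band the range of the 18 hybridisation controls (0.06 to 0.26). The intervals of Dab2, Gata6 and Sox7 lie wholly below 0 and those of Eomes and Gata4 wholly above it. Only Dab2 and Gata6 passed the adjusted threshold, and the Gata4 estimate of 0.19 lies within the band.

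Eomes, a T-box factor of the streak, definitive endoderm and trophoblast, behaved in the opposite way late in the course. It had log2 values of 6.45, 6.75, 6.61, 7.07, 7.33 and 8.04 on days 2 to 12 with AGi, against 6.64, 6.57, 6.37, 6.21, 6.43 and 6.74 with OKSM alone. The value with AGi was below the other on day 2 and above it on the other 5 days, and from day 8 on above every OKSM value. Over the 6 days the AGi effect was 0.55 ± 0.19 and did not pass (limma adjusted p = 0.0696). On days 8, 10 and 12 alone it was 1.02 and passed (adjusted p = 0.00482), and without day 2 it was 0.69 and passed (adjusted p = 0.0236).

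The change over days was fitted with a slope in each arm. Eomes rose with AGi by 0.15 ± 0.02 log2 per day (limma adjusted p = 0.00352), against −0.00 ± 0.02 with OKSM alone. The slope difference of 0.15 ± 0.03 did not pass without the day as a block (adjusted p = 0.0613) and passed with it (adjusted p = 0.00699). The slope with AGi no longer passed when each arm was given a separate level for days 8 to 12 (0.14, adjusted p = 0.347). Eomes read 6.66 in Thy1-positive cells, 7.28 in Fibroblast-iPSC, 7.43 in GMP-iPSC, 7.77 in ESCs, 6.64 in GMPs and 6.49 in MEFs. The late cultures with AGi rose from 7.07 on day 8 to 8.04 on day 12, which was above each pluripotent array. Their mean was 7.48 ± 0.50 (SD, n = 3 days), against 7.49 ± 0.25 in the pluripotent arrays (SD, n = 3 lines). This mean level of Eomes is thus also that of these ESC and iPSC arrays. Pluripotency markers moved with it: 5 of 13 were higher with AGi and 0 lower, and their mean was 10.32 on day 12 with AGi, against 7.98 with OKSM alone. Their part in the Eomes result was not tested. The window before the start of Eomes, with 0 matches to either motif, lies on the plus strand at chr9:118477939-118478188.
Eomes: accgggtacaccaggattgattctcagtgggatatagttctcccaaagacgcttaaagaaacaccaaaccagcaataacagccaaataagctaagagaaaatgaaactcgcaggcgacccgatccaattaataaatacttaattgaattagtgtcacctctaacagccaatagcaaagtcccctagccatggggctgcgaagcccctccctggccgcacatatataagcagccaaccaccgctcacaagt

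Of the other primitive endoderm factors, Gata4 read 6.90, 7.02, 7.01, 6.79, 6.94 and 7.31 on days 2 to 12 with AGi, against 6.81, 6.91, 6.85, 6.77, 6.65 and 6.82 with OKSM alone. It was higher with AGi on 6 of 6 days, by 0.19 ± 0.07 (limma adjusted p = 0.0880), which is no more than the controls differed by. When each array was centred on its hybridisation controls, the Gata4 effect was 0.03 (adjusted p = 0.799). The pluripotent arrays, at 7.28 in Fibroblast-iPSC, 7.30 in GMP-iPSC and 7.43 in ESCs, were above every culture except day 12 with AGi (7.31), which was below ESCs alone, and MEFs read 7.0. Gata4 thus did not follow Gata6, whose highest value was that of MEFs.

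Sox17 lay between 6.11 and 6.57 with AGi and between 6.18 and 6.67 with OKSM alone, so the arms overlapped. Its AGi effect was −0.07, with a 95% interval from −0.20 to 0.07. Centred on the hybridisation controls it was −0.23 and was called (limma adjusted p = 0.0391). Sox7 read 5.83, 5.92 and 5.98 on days 2, 4 and 6 with AGi, against 6.11, 6.12 and 6.44 with OKSM alone, and on days 8, 10 and 12 it read 6.31, 6.29 and 6.35, against 6.29, 6.42 and 6.33. It was lower with AGi on days 2, 4, 6 and 10, and the effect over all 6 days was −0.17 (95% interval −0.34 to −0.00, adjusted p = 0.142). Centred on the controls that effect was −0.34 and was called (adjusted p = 0.0140, limma). Without centring, the slopes of the arms were not shown to differ (limma adjusted p = 0.485). Sox7 rose with AGi by 0.06 ± 0.01 log2 per day (limma adjusted p = 0.0153). Leaving out day 2, 4 or 12 ended that call, with adjusted p = 0.0580, 0.0592 and 0.0697 in turn, and so did centring on the hybridisation controls (adjusted p = 0.0641). It was also lost with a separate level for days 8 to 12 (adjusted p = 0.798). Eomes and Sox7 were the 2 of 9 members with a rising slope with AGi and 0 had a falling one, against 7.24% and 5.51% of all genes. With OKSM alone 0 of 9 members had a called slope in either direction, against 3% of all genes rising and 2.3% falling. At an unadjusted p under 0.05 Sox17 was falling in both arms. Its slope was −0.04 log2 per day in each (limma unadjusted p = 0.0174 with AGi and 0.0233 with OKSM alone). For the slope difference, 0 of 9 members were called without the day block, against 1.06% of all genes higher and 0.685% lower, and at an unadjusted p under 0.05 Eomes and Mixl1 were higher.

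Foxa2, Mixl1 and Cdx2, which stand for definitive endoderm, streak and trophectoderm, were not called in any comparison. Foxa2 lay between 7.21 and 7.36 with AGi and between 7.14 and 7.52 with OKSM alone, and Cdx2 between 6.36 and 6.65 with AGi and between 6.36 and 6.58 with OKSM alone. Over all 18 arrays Foxa2 spanned 0.38 log2 and Cdx2 0.36, and only 8.65% and 7.17% of genes spanned less. Their AGi effects were −0.01 (95% interval −0.16 to 0.14) and −0.02 (−0.15 to 0.12). Centred on the hybridisation controls they were −0.18 and −0.19 (adjusted p = 0.0877 and 0.0754, limma). Mixl1 lay between 5.89 and 6.47 with AGi and between 5.91 and 6.34 with OKSM alone, with an effect of 0.05 (−0.17 to 0.27), or −0.12 when centred on the controls. It spanned 0.93 log2 over the 18 arrays, and 53.1% of genes spanned less. It was lower with AGi on days 2, 4 and 6 and higher on days 8, 10 and 12, and it read 6.71 in Fibroblast-iPSC, 6.82 in GMP-iPSC, 6.70 in ESCs and 6.18 in MEFs.

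These 6 genes read between 5.83 and 7.52 on all arrays, against array medians of 6.32 to 6.46. Gata4 and Foxa2 were at or above the array median on 18 of 18 arrays. All 6 lay within the range of the background probe sets, where a steady value is no evidence that the RNA was present or absent.

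**Figure D3:**
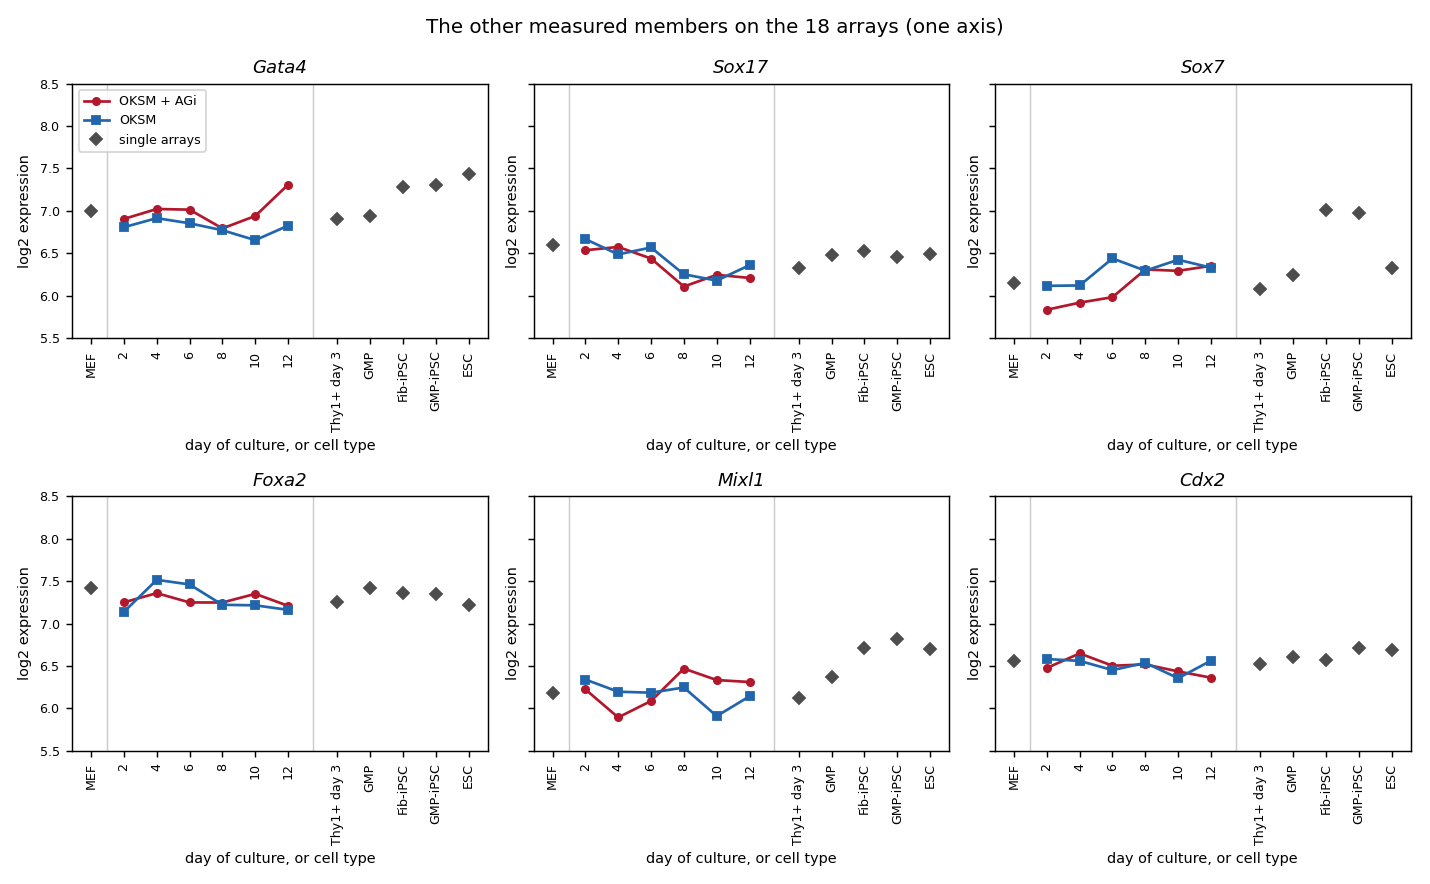
Log2 expression (y axis, the same in all panels) of Gata4, Sox17, Sox7, Foxa2, Mixl1 and Cdx2 in MEFs, on days 2 to 12 with AGi (circles) and with OKSM alone (squares), and in the other single arrays (diamonds); each point is 1 array. The arms overlap in each panel, and Sox7 stands at 7.01 in Fibroblast-iPSC and 6.97 in GMP-iPSC against 6.33 in ESCs.

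Against uninduced MEFs, 0 of 9 members were at least 1 log2 higher on all 6 days in either arm, where 1.39% of all genes were with AGi and 1.37% with OKSM alone. None was at least 1 log2 lower on all 6 days, against 1.77% of genes with AGi and 0.938% with OKSM alone. This comparison rests on 1 MEF array and has no test. Gata6 missed that size with AGi only on day 2, and without that day it met it. The highest step above MEFs was that of Eomes with AGi on day 12, by 1.55.

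Against ESCs, 1 array each and with no replicate check, Sox7 was higher by 0.68 in Fibroblast-iPSC and by 0.64 in GMP-iPSC, both lines being set against the same ESC array. It was the 1 member of 9 that was higher by at least 0.5 log2 in each line, where 6.11% and 3.3% of all genes were. The Dab2 difference from ESCs was −0.53 in GMP-iPSC, where 3.94% of genes were at least 0.5 lower, and 0.05 higher in Fibroblast-iPSC, where 5.62% of genes were lower by that size and 0 members were.

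Wider gene sets of the same lineages are read against the 11.8% of all genes called higher with AGi and the 11.9% called lower. Of 23 measured primitive endoderm genes, 2 were higher with AGi and 7 lower, with a median effect of −0.22 against −0.00 over all genes. Apoe (1.34 ± 0.30), a lipid carrier, and Lama1 (0.74 ± 0.15), a laminin chain, were higher, while Thbd (−1.04 ± 0.15), the thrombin receptor thrombomodulin, and Sparc (−0.46 ± 0.09), a matrix protein, were lower. Apoe, at 11.11 on day 12 with AGi, read 9.92 in Fibroblast-iPSC, 10.42 in GMP-iPSC and 10.67 in ESCs, and Sparc read 12.22 in MEFs, so Apoe was also high in the pluripotent arrays and Sparc in MEFs. The transcription factors on that list, Gata5, Hnf4a and Foxq1, had effects of −0.00, 0.11 and 0.04 and did not pass.

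Of 15 definitive endoderm genes, 2 were higher and 2 lower (median −0.04), shares near those of all genes. Cldn6, a tight junction protein (1.94 ± 0.46), and Prdm1, a transcriptional repressor (0.48 ± 0.12), were higher, and both read higher in ESCs (10.15 and 8.65) than in MEFs (6.38 and 6.72). Cxcr4, a chemokine receptor (−1.36 ± 0.13), and Foxa1, a relative of Foxa2 (−0.24 ± 0.07), were lower. Cxcr4 lay between 7.81 and 8.55 with AGi and between 9.08 and 10.04 with OKSM alone, against 7.90 in MEFs, so the arms did not overlap.

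Of 25 primitive streak and early mesoderm genes, 3 were higher and 3 lower (median −0.03), again near the shares of all genes. The higher ones were Wnt8a (1.53 ± 0.37, limma adjusted p = 0.0209), a Wnt ligand, Lef1 (1.17 ± 0.25, adjusted p = 0.0116), a nuclear partner of beta-catenin, and Axin2, a Wnt feedback gene, at 0.92. Foxf1 (−0.33 ± 0.07), Kdr (−0.36 ± 0.09) and Sp8 (−0.19) were lower. Wnt8a did not rise steadily: it read 6.22, 7.52, 9.08, 8.92, 8.35 and 6.97 on days 2 to 12 with AGi, against 6.07 to 6.53 with OKSM alone, and 6.90 in Fibroblast-iPSC, 6.59 in GMP-iPSC and 7.12 in ESCs. Lef1 likewise read 8.32, 9.91, 10.32, 9.87, 10.02 and 8.89 with AGi, against 8.06 to 8.67 with OKSM alone. Lef1 was also high in the pluripotent arrays, at 9.31 in Fibroblast-iPSC, 9.86 in GMP-iPSC and 10.22 in ESCs, against 8.43 in MEFs. The streak factors Mesp1, Evx1, Fgf8, Wnt3, Tbx6 and Msgn1 lay between −0.17 and 0.04 and did not pass. Other genes of the list that did not pass spread more widely. Among them Hand1 was lowest at −0.20 and Lefty2 highest at 0.51 (limma adjusted p = 0.0610 and 0.0749), and Nodal was at 0.46 (adjusted p = 0.0996).

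Of 15 trophoblast genes, 4 were higher and 1 lower (median 0.11). Peg10, an imprinted retrotransposon-derived gene (1.44 ± 0.29), and Esx1, a homeobox gene of the placenta (1.36 ± 0.31), were higher, and Gata2 was lower (−0.91 ± 0.17). Tfap2c (0.95) and Krt8 (0.56) were the other higher ones. Peg10 read 10.38 in Fibroblast-iPSC, 10.95 in GMP-iPSC, 9.59 in ESCs and 9.66 in MEFs, against 8.14 to 9.05 with OKSM alone. Tfap2c and Krt8 read higher in ESCs (7.87 and 9.39) than in MEFs (5.58 and 7.84). Esx1 was at 6.84 in ESCs, below its values with AGi from day 4 on. Esx1 read 6.36, 7.62, 8.63, 8.02, 9.14 and 7.40 on days 2 to 12 with AGi, against 6.33 to 6.73 with OKSM alone, and so it too was lower on day 12 than on days 6 to 10. Elf5 (−0.02) and Gata3 (−0.06), which act with Cdx2 in trophoblast, did not pass.

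**Figure D4:**
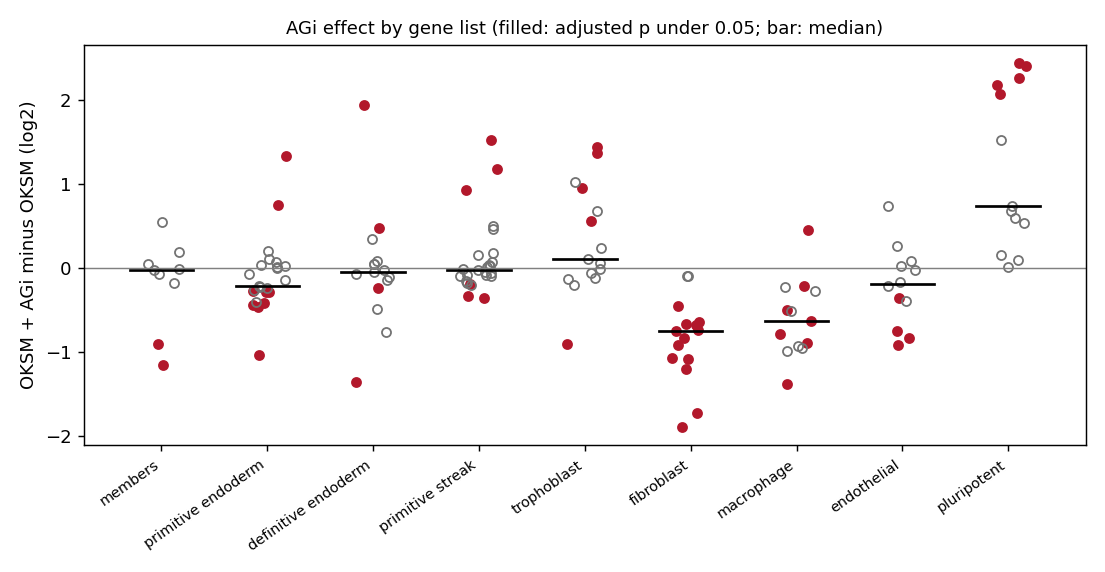
AGi effect (y axis, log2 difference of OKSM with AGi minus OKSM alone) of the 9 members and of the genes on 8 lists (x axis); each point is a gene, filled where the limma adjusted p was under 0.05, and the bar is the median. The fibroblast list lies lowest, with 13 of 15 genes lower, and the pluripotent list highest, with a median of 0.73.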

How the data were processed

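Total RNA of 18 samples was labelled with biotin and hybridised to Affymetrix mouse arrays. The deposited values are log2 expression per probe set. Per the submitters' processing notes, the authors used RMA in Affymetrix Expression Console. Its settings, the scan dates and the build are not stated in those sources, so no batch was tested and no gene coordinates are printed; promoter windows carry those of the RefSeq table (GRCm38.p6).

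Of 41345 probe sets, 23521 had 1 gene symbol in the platform annotation, 1814 several, and 15820 none besides 190 controls. For each of the 22180 genes, the probe set of highest mean was used. No filter on low values was used, so that every measured member was tested; all 9 also passed the filter used as an alternative (13865 genes).

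The tests used limma 3.58.1 under R 4.3.3 (lmFit, eBayes, Benjamini-Hochberg over all genes, threshold 0.05). The AGi effect had the day as a block (5 residual degrees of freedom), and slopes came from arm, day and their product (8 residual degrees of freedom). The day is given by the labels, and arrays of 1 day deviated together from their arm's mean (correlation over genes 0.26 to 0.52), so the blocked slope difference is printed where it changes a call. On 4 of 6 days the array with AGi correlated best with the OKSM array of its own day. These correlations do not separate a shared day from a course over days common to both arms. Nothing says that days were separate cultures. The fits were tested on simulated arrays. Named list genes were the 2 highest and 2 lowest called AGi effects of each lineage list, and for members spanning at least 2 log2, the 3 genes most correlated with them. Axin2, Sp8, Tfap2c, Krt8, the genes named as not passing and the genes in the closing observations were added after their values were seen. Members and lists were chosen with earlier results of these data known. Plots used matplotlib 3.10.9 and Python 3.11.15.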

Additional observations from a re-analysis of the deposited data

How the results depend on the processing

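Alternatives were a filter on low values, the mean over probe sets, 2 scalings, another variance model, other day terms, subsets of days and leaving out each day. The AGi effects of Dab2 and Gata6 kept their sign in all of them and lost the call only on days 2, 4 and 6 alone, where 0 members were lower and Mixl1 (−0.17) and Cdx2 (0.0115) changed sign, and 1680 genes were called in place of 5252. Centring on the hybridisation controls shifted the median AGi difference of all genes by −0.17. It then called 8776 genes and 4 members lower (Sox17 at −0.23 and Sox7 at −0.34 joining), and Mixl1 was at −0.12. For the slopes it called 164 genes in place of 387 (difference), 1561 in place of 2828 with 1 member rising (with AGi) and 464 in place of 1176 (OKSM alone), and turned Sox17 (0.0032, difference), Foxa2 (0.0061, with AGi) and Eomes (0.0031, OKSM alone). Quantile normalization turned Foxa2 (2.3e-05) and the slope difference of Sox17 (0.0045), and made 1 member lower than MEFs with AGi; at 0.5 log2, 1 was lower with AGi and 1 with OKSM alone, Gata6 each time. Tested against the control difference, 1037 genes were called. On days 8, 10 and 12 alone 1 member, Eomes, was higher and Foxa2 was at 0.0699. The AGi effects of Dab2 and Gata6 also passed with no replicate block (adjusted p = 0.00674 and 0.0167, limma); with the replicate block, 1039 genes and 1 member, Eomes, had a slope difference. A separate level for days 8 to 12 left 0, 46 and 0 genes with a called slope (difference, with AGi, OKSM alone) and 0 members rising with AGi. At an unadjusted p under 0.05 limma gave 990, 2610 and 1049 genes in the same order; this fit has fewer residual degrees of freedom by construction, and no other cause was tested. It turned the slope differences of Sox7 (−0.0210), Foxa2 (−0.0380) and Mixl1 (−0.0045), the slopes with AGi of Sox17 (0.00050) and Mixl1 (−0.0369), and the slopes with OKSM alone of Gata4 (0.0125), Gata6 (−0.0545), Sox17 (0.0011), Foxa2 (0.0330), Eomes (0.0336) and Dab2 (−0.0466).

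Leaving out 1 day, genes called ranged from 3095 (without day 8) to 5389 for the AGi effect, with 0 to 1 members higher (1 without day 2, Eomes). They ranged from 72 (without day 4) to 435 for the slope difference, from 841 (without day 12) to 3542 for the slope with AGi, with 1 to 2 members rising, and from 250 (without day 4) to 1396 for OKSM alone. Members lower than MEFs with AGi ranged from 0 to 1 (without day 2). Signs turned for the AGi effects of Cdx2 (−0.0387 to 0.0191), Foxa2 (−0.0365 to 0.0330) and Mixl1 (−0.0251 to 0.12), and for the slope differences of Dab2 (−0.13 to 0.0260), Sox17 (−0.0140 to 0.0083) and Cdx2 (−0.0275 to 0.0132). They also turned for the slopes with AGi of Gata6 (−0.13 to 0.0559), Dab2 (−0.11 to 0.0937), Foxa2 (−0.0099 to 0.0045) and Gata4 (−0.0079 to 0.0297), and for that of Eomes with OKSM alone (−0.0384 to 0.0202). None of the turned values was called.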

Other observations

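Some genes of these lineages that are high in pluripotent cells had not reached that level by day 12 with AGi. Lefty2, a Nodal antagonist, read 6.91 on day 12 with AGi and 6.38 with OKSM alone, against 11.02 in Fibroblast-iPSC, 9.08 in GMP-iPSC and 10.46 in ESCs. Lefty1, its relative, read 6.82 on day 12 with AGi and 6.39 with OKSM alone, against 8.95 in Fibroblast-iPSC, 8.60 in GMP-iPSC and 10.01 in ESCs. Otx2, a homeobox factor of epiblast and anterior endoderm, read 7.04 on day 12 with AGi and 5.90 with OKSM alone, against 8.41 in Fibroblast-iPSC, 8.79 in GMP-iPSC and 8.55 in ESCs. Eomes, in contrast, read 8.04 on day 12 with AGi, above each of these 3 arrays.

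Pdgfra, a receptor of primitive endoderm and of mesenchyme, was not called for AGi. It read 6.62, 5.91, 6.64, 8.36, 8.62 and 10.30 on days 2 to 12 with AGi and 7.24, 6.08, 6.15, 8.48, 9.34 and 9.55 with OKSM alone, against 7.97 in MEFs (AGi effect −0.06, limma adjusted p = 0.859). Trh, which encodes thyrotropin-releasing hormone, read 6.91 on day 2 with AGi and 10.73 with OKSM alone, against 7.13 in MEFs, and by day 8 it read 12.74 with AGi and 11.51 with OKSM alone. On day 12 it read 11.10 with AGi and 11.50 with OKSM alone, and its AGi effect was not called (−0.48, limma adjusted p = 0.639). The pluripotent arrays read 12.50 in Fibroblast-iPSC, 12.14 in GMP-iPSC and 12.67 in ESCs.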
